A study of Homo sapiens with 15 samples.

Results

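Tight junctions are the belts of contact that seal neighbouring epithelial cells to each other near their apical surface. The strands of the seal are made of claudins, 4-pass membrane proteins whose mixture sets how tight and how ion-selective the barrier is, together with occludin and junctional adhesion molecules. On the cytoplasmic side, zonula occludens (ZO) scaffolds and cingulin tie these proteins to actin. Loss of claudins is a known feature of epithelial–mesenchymal transition (EMT), in which epithelial cells take on mesenchymal traits.

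The 9 genes described here are 4 claudins (CLDN1, CLDN3, CLDN4, and CLDN7), occludin (OCLN), junctional adhesion molecule A (F11R), and 3 scaffold or plaque genes (TJP1, TJP3, and CGN). They were taken by symbol from a table of 19612 gene symbols, and all 9 were found. RNA was sequenced from 15 libraries of a lung adenocarcinoma line and its resistant subline, 3 libraries per condition, 1 from each of 3 passages. Parental H1975 cells received vehicle (Samples 1a, 1b, and 1c). H1975–OR cells, an osimertinib-resistant subline obtained by keeping H1975 cells in 500 nM osimertinib, received vehicle in Samples 2a, 2b, and 2c. In Samples 3a, 3b, and 3c they received 1,25(OH)2D3 at 100 nM, in Samples 4a, 4b, and 4c osimertinib at 500 nM, and in Samples 5a, 5b, and 5c both agents at these doses. All groups carry EGFR T790M and L858R, and cells were treated for 96 h in all, dosed at 0, 48, and 92 h. Osimertinib inhibits mutant EGFR, and 1,25(OH)2D3 is the active hormone made from vitamin D3. The study describes changing the growth medium for one with charcoal-stripped serum that held vehicle, osimertinib, 1,25(OH)2D3, or both agents. The subline was otherwise grown with osimertinib. By that description, the groups with vehicle or with 1,25(OH)2D3 alone were without the drug during treatment. Its withdrawal cannot be told apart from other differences of these groups from H1975 or from the groups with osimertinib. No parental group received either agent, and 1 resistant subline was sequenced, so resistance and this subline cannot be told apart.

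Levels are given as CPM, the estimated read count of a gene relative to the TMM-adjusted total of its library. Library totals lay between 4378030 and 6140120 estimated counts, so 3 counts, taken as the floor, were worth between 0.477 and 0.708 CPM. Sample 3a was described as atypical in the study and left out there. It is left out of every mean and test here, and its values are given separately. Tests are edgeR's quasi-likelihood test, 2-sided, with Benjamini-Hochberg adjustment over all genes tested, and a gene is said to rise or fall where the adjusted p was under 0.05. Differences are log2 fold changes with their standard error (SE) and 95% interval. The keratins KRT7, KRT8, KRT18, and KRT19 and the lung transcription factor NKX2-1 were above the floor in all 15 libraries, whereas the alveolar genes NAPSA and SFTPB reached at most 2.25 and 1.90 CPM. Markers of other cell types were mixed. Of the 4 leukocyte markers, CD3E was at 0 in all 15 libraries and CD68 lay between 4.72 and 38.6 CPM. Of the 3 endothelial markers, CDH5 reached 11.6 CPM. Of the 5 mesenchymal markers, VIM lay between 2201 and 4808 CPM, PDGFRB between 2.01 and 47.6 CPM, LUM reached 14.04 CPM, and THY1 at most 0.472 CPM. CYP24A1, the vitamin D-degrading enzyme and classical target of the vitamin D receptor, stood between 3.31 and 9.13 CPM in the H1975–OR libraries without 1,25(OH)2D3 and between 676.5 and 1470 CPM in those with it.

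CLDN3 and CLDN4 lie 29272 bases apart on chromosome 7, on opposite strands, at 73768997–73770270 and 73799542–73832690 (GRCh38, GENCODE release 44). CLDN7 lies on chromosome 17 (7259903–7263983, minus strand) and CLDN1 on chromosome 3 (190305707–190322446, minus strand). The promoters of the claudins are shown because CLDN4 and CLDN7 fell in the resistant line, with CLDN3 and CLDN1, which did not pass, for comparison, and because the E-box CAGGTG, which reads CACCTG on the other strand, is the element that the EMT repressors of the Snail and ZEB families are known to bind. The RefSeq promoter table (GRCh38.p14) had an entry for 8 of the 9 genes, with 14 start sites. In the 250 bases before 1 of the 2 CLDN7 start sites (chr17:7262479-7262728, minus strand) the E-box occurred 4 times, in either orientation, the most among the 14. That window overlaps an exon of an annotated CLDN7 transcript. Of 35116 promoter windows of that length, 17.5% held at least 1 such E-box and 0.122% held 4 or more. Stretches of it follow from 5′ to 3′, with the E-boxes in capitals, and the last ends next to the start site.
CLDN7, chr17:7262636-7262663: ttcttcctcctCACCTGggcaaggaggg
CLDN7, chr17:7262597-7262624: gacttccggttCAGGTGagtgtcccttc
CLDN7, chr17:7262479-7262503: atactCAGGTGcgcccCACCTGtcc

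The other CLDN7 start site and the promoters of CLDN3, CLDN4, and CLDN1 held no E-box with these letters in the same window, and neither did that of CGN. Both OCLN windows, 1 of the 4 of TJP1, and 1 of those of TJP3 held 1 each. The 250 bases before the start of CLDN3 and of CLDN1 are printed for comparison, both from the minus strand and with no letter in capitals.
CLDN3, chr7:73770271-73770520: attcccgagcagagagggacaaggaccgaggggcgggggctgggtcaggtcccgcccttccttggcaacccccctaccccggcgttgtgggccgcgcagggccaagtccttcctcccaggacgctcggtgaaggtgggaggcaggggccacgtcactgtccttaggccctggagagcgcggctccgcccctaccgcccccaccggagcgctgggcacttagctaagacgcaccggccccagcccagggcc
CLDN1, chr3:190322447-190322696: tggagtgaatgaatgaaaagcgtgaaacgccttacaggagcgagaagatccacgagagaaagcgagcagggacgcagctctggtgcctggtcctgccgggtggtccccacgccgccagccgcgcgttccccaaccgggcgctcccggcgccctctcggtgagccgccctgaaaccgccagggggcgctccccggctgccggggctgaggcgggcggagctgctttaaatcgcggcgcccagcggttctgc

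The hexamer AGGTCA, which reads TGACCT on the other strand and is a unit of the direct repeat that the vitamin D receptor and its partner recognise, was found in 12.1% of the 35116 windows. It occurred once in the CLDN4 window, and also once in both CLDN7 windows, in 1 of the 4 of TJP1, and in that of CGN. The CLDN4 window lies within the gene span given above and overlaps an exon of an annotated CLDN4 transcript. The CLDN4 match is in capitals in the stretch printed here, from the plus strand.
CLDN4, chr7:73830766-73830793: tgtctcccgggTGACCTcagcatgggct
These matches are descriptions of the letters. Binding was not measured.

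The first comparison asked how the resistant line differed from its parental counterpart without treatment. Of the 9 genes, 2 fell in H1975–OR cells, CLDN4 and CLDN7, and none rose. Among all 12513 genes tested 20.1% passed in either direction and 10.3% fell. CLDN7 passed the count filter only through the parental group, in which it was high, so its call adds nothing to this count. The median log2 fold change was -1.20 over the 9 genes, the value of CLDN3, and 0.01 over all genes tested. CLDN7 and F11R, which was at 0 in every vehicle-treated H1975–OR library, enter that median through the same filter, so it is a description.

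CLDN4, a barrier claudin of simple epithelia, had the highest group mean per kilobase of transcript of the 9 genes in every condition. It stood at 165, 360, and 523 CPM in Samples 1a, 1b, and 1c and at 39.5, 65.1, and 52.4 CPM in Samples 2a, 2b, and 2c. Every parental library was above every resistant library, and the parental libraries were spread more widely than the resistant ones. The log2 fold change was -2.72 (SE 0.39, 95% interval -3.62 to -1.82, adjusted p = 0.00284).

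CLDN7, which is found along the basolateral membrane as well as at the junction, dropped to the floor. It had 8.32, 33.2, and 57.8 CPM in the parental libraries, from 48, 182, and 284 counts. The H1975–OR vehicle libraries had 0, 3, and 3 counts, that is 0, 0.620, and 0.578 CPM. Over the pooled libraries, 514 against 6 counts gave a level 79.0-fold lower in H1975–OR cells, with a 95% counting interval of 36.0 to 216. The adjusted p was 0.00394, and the fitted log2 fold change of -6.26 depends on the small count edgeR adds to such genes. In the annotation CLDN7 shares its strand with another protein-coding gene that overlaps it (7246829–7262089).

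CLDN3, a barrier claudin often expressed alongside CLDN4, was low throughout. It had 5.02, 7.11, and 9.97 CPM in H1975 and 0.818, 4.76, and 3.86 CPM in vehicle-treated H1975–OR cells. The groups did not overlap, but the closest libraries were 5.02 and 4.76 CPM, and the difference did not pass (log2 fold change -1.20, SE 0.61, 95% interval -2.59 to 0.19, adjusted p = 0.200).

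CLDN1, the claudin known for the water barrier of the skin, gave the opposite sign, with libraries of the same group far apart. It had 5.89, 18.2, and 39.7 CPM in H1975 cells and 96.8, 26.9, and 26.0 CPM in vehicle-treated H1975–OR cells. Sample 2a stood far above the other libraries, and the remaining 2 resistant libraries lay inside the parental range. The log2 fold change of 1.25 (SE 0.69, 95% interval -0.32 to 2.82) did not pass (adjusted p = 0.237). At the level of the group mean per kilobase of transcript, CLDN1 stood at 6.17 CPM in H1975 and 14.5 CPM in vehicle-treated H1975–OR cells, and CLDN4 at 206 and 30.9 CPM.

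**Figure D1:**
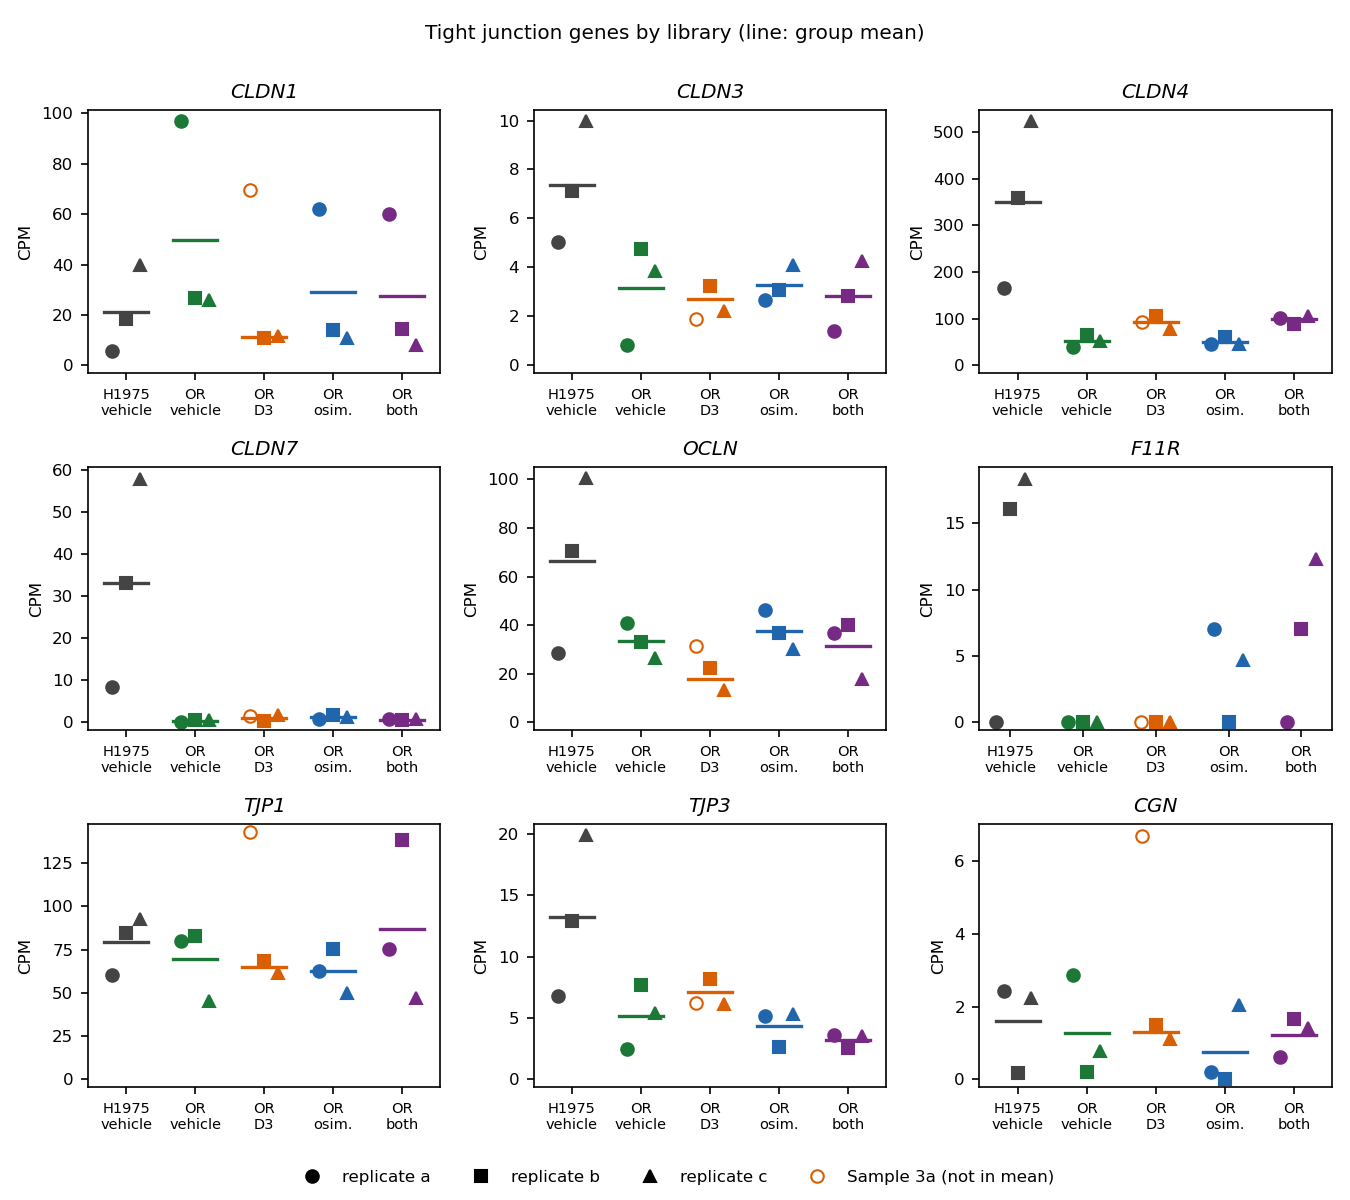
CPM of the 9 genes in each of the 15 libraries (linear axis, one scale per gene), with the replicate letter as the marker shape and the group mean as a line, except for F11R, which has none. The hollow marker is Sample 3a, which is in no mean. CLDN4 and CLDN7 stand highest in the 3 H1975 libraries, and for CLDN1 the replicate a library is the highest of every H1975–OR group.

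OCLN, the gene of occludin, overlapped between the lines. It had 28.6, 70.4, and 101 CPM in H1975 and 40.7, 32.9, and 26.6 CPM in vehicle-treated H1975–OR cells, with Sample 1a inside the resistant range. The log2 fold change was -0.98 (SE 0.42, 95% interval -1.92 to -0.03, adjusted p = 0.134). Without Sample 1a it was -1.36 with an adjusted p of 0.0187, so that 1 library decided this call.

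F11R, whose product is the immunoglobulin-like adhesion molecule JAM-A, was listed at 0 in 9 of 15 libraries. It was at 0, 16.0, and 18.3 CPM in H1975, at 0 in all 3 vehicle-treated and all 3 1,25(OH)2D3-treated H1975–OR libraries, at 7.04, 0, and 4.70 CPM with osimertinib, and at 0, 7.05, and 12.3 CPM with both agents. Libraries of the same group thus went from 0 to as much as 90 counts. The gene overlaps another protein-coding gene on the same strand of chromosome 1 (160997957–161038962), between which the authors' transcript assignment could have split the reads. No fold change is given for F11R, and it is the 1 gene with no entry in the promoter table.

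TJP1 encodes ZO-1, the main scaffold of the junction. It had 60.1, 84.8, and 92.8 CPM in H1975 and 80.2, 83.1, and 45.5 CPM in vehicle-treated H1975–OR cells, and the ranges overlapped. The log2 fold change was -0.17 with a 95% interval of -0.73 to 0.39 (adjusted p = 0.666). Its lower bound is a smaller fall than the upper bound of the CLDN4 interval. TJP3, encoding the related scaffold ZO-3, had 6.76, 12.9, and 19.9 CPM in H1975 and 2.46, 7.65, and 5.40 CPM in vehicle-treated H1975–OR cells. Sample 2b lay above Sample 1a, and the log2 fold change of -1.33 (SE 0.51, 95% interval -2.50 to -0.17) did not pass (adjusted p = 0.101). CGN, encoding cingulin, had between 0 and 14 counts in the 14 libraries and reached 2.86 CPM at most, too few to compare.

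Among the parental libraries the genes kept one order. Sample 1a was the lowest, 1b intermediate, and 1c the highest for 8 of the 9 genes, all but CGN. Over the 12627 genes that passed the count filter in 15 libraries, 20.3% had this order. EPCAM, an epithelial adhesion gene whose protein binds CLDN7, had it too, with 75.0, 173, and 207 CPM, and VIM had the reverse, with 3032, 2608, and 2201 CPM. EPCAM stood between 9.31 and 12.7 CPM in vehicle-treated H1975–OR cells and VIM between 2911 and 4192 CPM. The part that such differences between passages and lines had in the levels of the claudins was not tested. The summed level of the 8 epithelial and lung markers was between 4496 and 5562 CPM in H1975 and between 3596 and 3935 CPM in vehicle-treated H1975–OR cells. Of the 8, only KRT18 and NKX2-1 had a higher group mean in vehicle-treated H1975–OR cells (2445 against 1899 and 56.3 against 44.8 CPM). Among those with a lower mean, KRT7 had 526 against 1460, KRT19 340 against 1144, and KRT8 439 against 465 CPM. The summed level was between 24.4 and 39.8 CPM in H1975 and between 13.03 and 17.4 CPM in vehicle-treated H1975–OR cells for the leukocyte markers, 6.41 to 9.16 and 6.36 to 8.18 CPM for the endothelial ones, and 2205 to 3038 and 2947 to 4208 CPM for the mesenchymal ones. CD68 alone had group means of 33.0 and 14.4 CPM within the leukocyte sum, and VIM 2614 and 3677 CPM within the mesenchymal sum. In such bulk samples, fewer cells of a kind and less RNA per cell cannot be told apart.

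The differences from the parental line were then followed through the treatments of H1975–OR cells. Relative to H1975, 3 of the 9 genes fell with 1,25(OH)2D3 (CLDN4, CLDN7, and OCLN), where 19.5% of all genes tested passed and 9.63% fell. With osimertinib 3 fell (CLDN4, CLDN7, and TJP3), where 23.4% of all genes passed and 12% fell. With both agents 3 fell, CLDN4, CLDN7, and TJP3 again, where 27.2% of all genes passed and 13.6% fell. None of the 9 rose. These comparisons share the 3 parental libraries. CLDN7 again passed the count filter only through the parental group, so its calls add nothing to these counts.

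CLDN4 was lower than in H1975 by a log2 fold change of -1.90 (SE 0.44, adjusted p = 0.0185) with 1,25(OH)2D3, -2.77 (SE 0.34, adjusted p = 0.000218) with osimertinib, and -1.82 (SE 0.33, adjusted p = 0.00184) with both agents. CLDN7 remained within a few counts in every H1975–OR library. It had 2 and 10 counts in Samples 3b and 3c, 4, 8, and 6 with osimertinib, and 4, 2, and 3 with both agents. The pooled counts were 26.6-fold lower than in H1975 with 1,25(OH)2D3 (95% counting interval 15.1 to 51.8), 26.5-fold lower with osimertinib (16.6 to 45.1), and 47.6-fold lower with both agents (24.9 to 105). The adjusted p was 0.0139, 0.00131, and 0.000599 in these 3 comparisons. The calls with 1,25(OH)2D3 rest on Samples 3b and 3c together. Leaving out either leaves 1 library in that group, assumed to vary like the others, so calls from those fits are not counted. The CLDN4 log2 fold change was then -2.12 without 3b and -1.71 without 3c, and that of CLDN7 -4.11 and -6.17.

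TJP3 had 5.14, 2.66, and 5.32 CPM with osimertinib and 3.61, 2.59, and 3.54 CPM with both agents, each below every parental library. The log2 fold changes were -1.59 (SE 0.49, adjusted p = 0.0334) and -2.01 (SE 0.50, adjusted p = 0.0107). The first did not pass when 1b, 1c, 4a, 4b, or 4c was left out (adjusted p = 0.0741, 0.144, 0.0515, 0.127, and 0.0646). OCLN stood at 22.3 and 13.2 CPM in Samples 3b and 3c, below every parental library, with a log2 fold change of -1.89 (SE 0.50, adjusted p = 0.0311). That call was lost without 1b or 1c (adjusted p = 0.0760 and 0.0721). The log2 fold change of OCLN was then -1.86 and -1.49. It was -2.31 without 3b and -1.55 without 3c, each with a lone treated library.

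**Figure D2:**
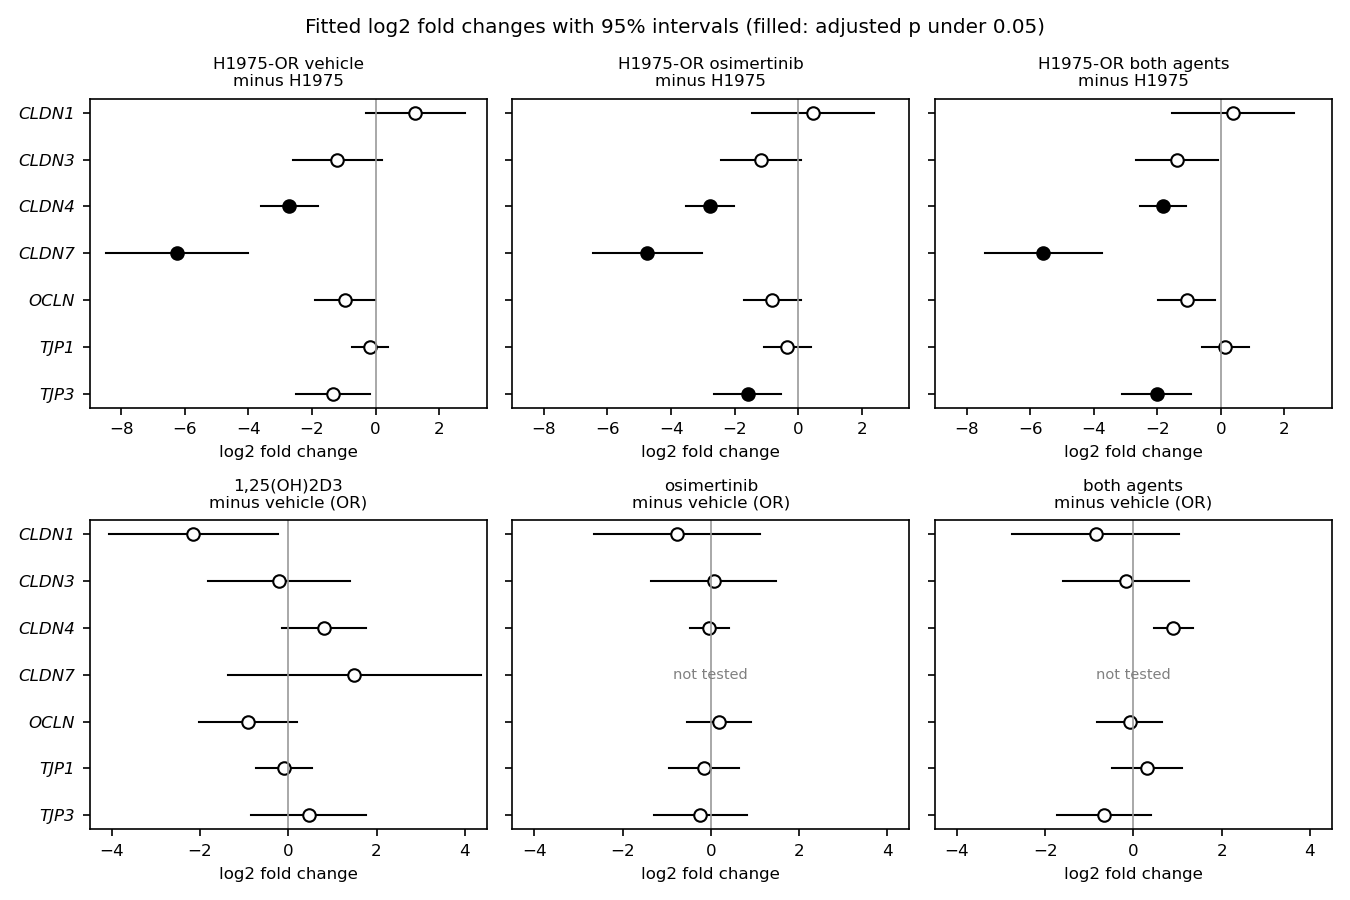
Fitted log2 fold changes (points) with 95% intervals (lines) for 7 of the 9 genes in 6 comparisons, filled where the adjusted p was under 0.05; the upper row uses one wider axis. CLDN4 and CLDN7 are filled in all 3 panels against H1975, and no gene is filled in the 3 panels within H1975–OR cells.

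The next comparisons asked what 1,25(OH)2D3, osimertinib, or both did to these genes within H1975–OR cells. None of the 9 genes passed with 1,25(OH)2D3 (0.152% of all 12513 genes passed, and 1 of the 9, CLDN1, had an unadjusted p under 0.05, as did 7.27% of all genes). F11R was at 0 in every library of the vehicle and 1,25(OH)2D3 groups, so it could not pass. In a fit of these 2 groups alone, 6 of the 9 genes were tested and none passed. CLDN7 and CGN did not pass the count filter among the H1975–OR libraries, so 7 of the 9 genes were tested in the other comparisons. None of the 7 passed with osimertinib against vehicle (0.048% of 12503 genes), with both agents against osimertinib (0.096%), or with both agents against vehicle (0.496%), and 1, 1, and 2 of the 7 had an unadjusted p under 0.05, as did 7.53%, 4.16%, and 12.5% of all genes. F11R, often listed at 0, is the 1 with osimertinib and 1 of the 2 with both agents against vehicle, and the others are CLDN4. DESeq2 called none of the 9 with 1,25(OH)2D3 (1.01% of all genes) and none of the 7 with osimertinib (0.955%). It called CLDN4 alone with both agents against osimertinib (0.528%) and against vehicle (2.97%).

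CLDN4 was higher in every library that received 1,25(OH)2D3 than in any H1975–OR library that did not. Samples 3b and 3c had 105 and 79.0 CPM, against 39.5, 65.1, and 52.4 CPM with vehicle. With both agents it had 101, 87.9, and 107 CPM, against 46.8, 61.2, and 45.4 CPM with osimertinib alone. The lowest of the 5 libraries with 1,25(OH)2D3 therefore stood at 79.0 CPM and the highest of the 6 without it at 65.1 CPM. How many of all genes were separated in this way was not counted. The log2 fold change was 0.82 with 1,25(OH)2D3 against vehicle (SE 0.42, 95% interval -0.13 to 1.77, adjusted p = 0.742), 0.94 with both agents against osimertinib (SE 0.20, 0.49 to 1.39, adjusted p = 0.328), and 0.91 with both agents against vehicle (SE 0.20, 0.46 to 1.36, adjusted p = 0.103). Same-lettered libraries moved together among the H1975–OR groups with vehicle, osimertinib, and both agents, and with the letter as a block the last of these was 0.94 (SE 0.18, 95% interval 0.54 to 1.34) with an adjusted p of 0.0307, where 3.69% of all genes passed. Both agents against osimertinib gave 0.96 with the block and did not pass (adjusted p = 0.104). For 1,25(OH)2D3 against vehicle, where the letters pair less clearly, the block gave 0.50 (95% interval -0.21 to 1.22, adjusted p = 0.916), or 0.75 (adjusted p = 0.231) in the 11 H1975–OR libraries. By DESeq2, the adjusted p was 0.00991 for both agents against osimertinib and 0.00477 for both agents against vehicle. Osimertinib alone left a log2 fold change of -0.03 with an interval of -0.48 to 0.42. The 1,25(OH)2D3 difference with osimertinib minus that without it was 0.12 (SE 0.30, 95% interval -0.55 to 0.79, adjusted p = 1.00).

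CLDN1 was lower than vehicle in every same-letter pair, for each treatment. The 1,25(OH)2D3-treated libraries had 10.96 and 11.5 CPM in Samples 3b and 3c, against 26.9 and 26.0 CPM in 2b and 2c. With osimertinib CLDN1 had 62.2, 13.9, and 10.8 CPM in Samples 4a, 4b, and 4c, and with both agents 60.2, 14.6, and 8.02 CPM in 5a, 5b, and 5c. The replicate a library was the highest in all 4 H1975–OR groups, Sample 3a with 69.7 CPM included, which was so for 9.6% of the 12627 genes. On the log2(CPM + 2) scale the same-letter differences from vehicle were -0.62, -0.86, and -1.13 with osimertinib and -0.67, -0.80, and -1.48 with both agents.

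Without the block, the CLDN1 log2 fold change was -2.15 with 1,25(OH)2D3 (SE 0.84, 95% interval -4.05 to -0.24, adjusted p = 0.605), -0.77 with osimertinib (SE 0.85, -2.66 to 1.11, adjusted p = 0.909), and -0.85 with both agents (SE 0.85, -2.74 to 1.04, adjusted p = 0.750). The value with 1,25(OH)2D3 rested on Sample 2a, which has no same-letter counterpart once Sample 3a is left out. It was -1.23 without Sample 2a (adjusted p = 0.893), -0.68 with Sample 3a kept in (adjusted p = 0.866), and -1.92 with the block (adjusted p = 0.884), or -1.11 (adjusted p = 0.167) where that fit held only the 11 H1975–OR libraries. With the letter as a block, both agents against vehicle gave -1.05 (SE 0.21, 95% interval -1.53 to -0.57, adjusted p = 0.0355), and osimertinib against vehicle gave -0.94 (SE 0.21, -1.41 to -0.47, adjusted p = 0.114; 0.28% of genes passed). Both agents against osimertinib gave -0.11 with the block (95% interval -0.60 to 0.37; 0.264% of genes passed). The block fit of both agents against vehicle with Sample 3a included called CLDN4 and not CLDN1.

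**Figure D3:**
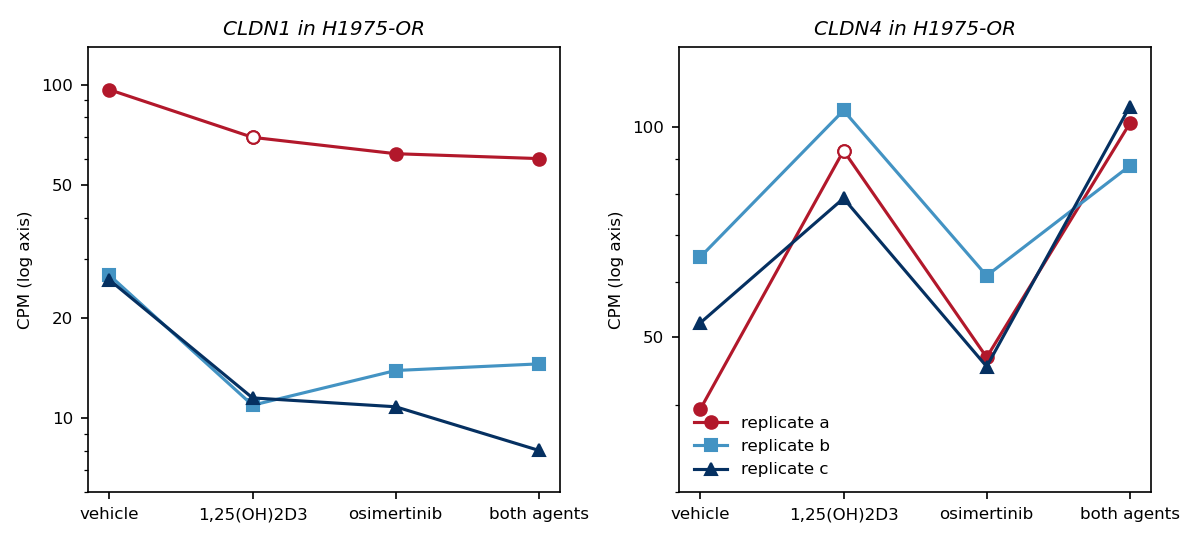
CPM (log axis) of CLDN1 and CLDN4 in the 12 H1975–OR libraries, with lines joining the libraries that share a replicate letter; the hollow circle is Sample 3a. For CLDN1 each line starts highest with vehicle and the line of replicate a runs above the other two, whereas for CLDN4 each line is higher in both conditions with 1,25(OH)2D3.

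OCLN had 46.4, 36.9, and 30.1 CPM with osimertinib and 36.9, 40.0, and 17.7 CPM with both agents, overlapping vehicle in both. Its log2 fold change was -0.91 with 1,25(OH)2D3 (SE 0.49, 95% interval -2.03 to 0.20, adjusted p = 0.756), where Samples 3b and 3c lay below every vehicle library. CLDN3 had 3.22 and 2.23 CPM with 1,25(OH)2D3, 2.66, 3.07, and 4.09 CPM with osimertinib, and 1.40, 2.82, and 4.25 CPM with both agents. These ranges all overlapped that of vehicle, and the 95% intervals of its 3 log2 fold changes from vehicle each held the span from -1.36 to 1.27.

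Of the scaffold genes, TJP1 had 68.3 and 61.3 CPM with 1,25(OH)2D3, 62.4, 75.4, and 49.9 CPM with osimertinib, and 75.4, 138, and 46.9 CPM with both agents. Sample 5b stood above the rest, and without it the log2 fold change of both agents against vehicle went from 0.31 to -0.19. TJP3 had 8.16 and 6.13 CPM with 1,25(OH)2D3, the first above every vehicle library and the second among them. The TJP3 interval was -0.83 to 1.76 for 1,25(OH)2D3 against vehicle and -1.74 to 0.40 for both agents against vehicle. The change in the response to 1,25(OH)2D3 when osimertinib was present passed for none of the 7 genes and for 0% of all genes. By edgeR, 330 of the 12503 genes had an unadjusted p under 0.05 for that difference, none of them among the 7, and DESeq2 called none of the 7 (0.088% of all genes).

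The wider tight junction and apical polarity machinery was described with a list of 55 further genes, of which 39 were tested between H1975–OR and H1975 with vehicle. The other 16 stayed under the count filter, among them CLDN2, CLDN9, CLDN10, and CLDN18. Of the 39, 4 rose (9.89% of all genes tested rose) and 4 fell, and the median log2 fold change was 0.10. PARD3B, a paralogue of the polarity scaffold PAR3, rose most, from 2.25, 0.729, and 0.407 CPM to 32.9, 26.9, and 14.8 CPM (log2 fold change 4.41, SE 0.58, adjusted p = 0.00183). The polarity scaffolds DLG1 (0.72), PALS1 (0.57; listed under an older symbol), and PARD3 (0.42) rose by less than 1 on the log2 scale.

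CRB3, the Crumbs protein of simple epithelia, fell from 4.33, 10.9, and 14.04 CPM to 0.818, 0.414, and 1.74 CPM (log2 fold change -3.24, SE 0.65, adjusted p = 0.0104). MARVELD3, which shares the MARVEL membrane domain with occludin, fell from 3.98, 9.66, and 13.8 CPM to 1.84, 0.414, and 0 CPM (-3.56, SE 0.96, adjusted p = 0.0326). CRB3 and MARVELD3 passed the count filter only through the parental group, in which they were high, with at most 9 counts in any vehicle-treated H1975–OR library, and PARD3B only through the H1975–OR libraries. Their calls are therefore descriptions. The decreases of CLDN12 (-0.82) and of the adherens junction scaffold AFDN (-0.64) were smaller.

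**Figure D4:**
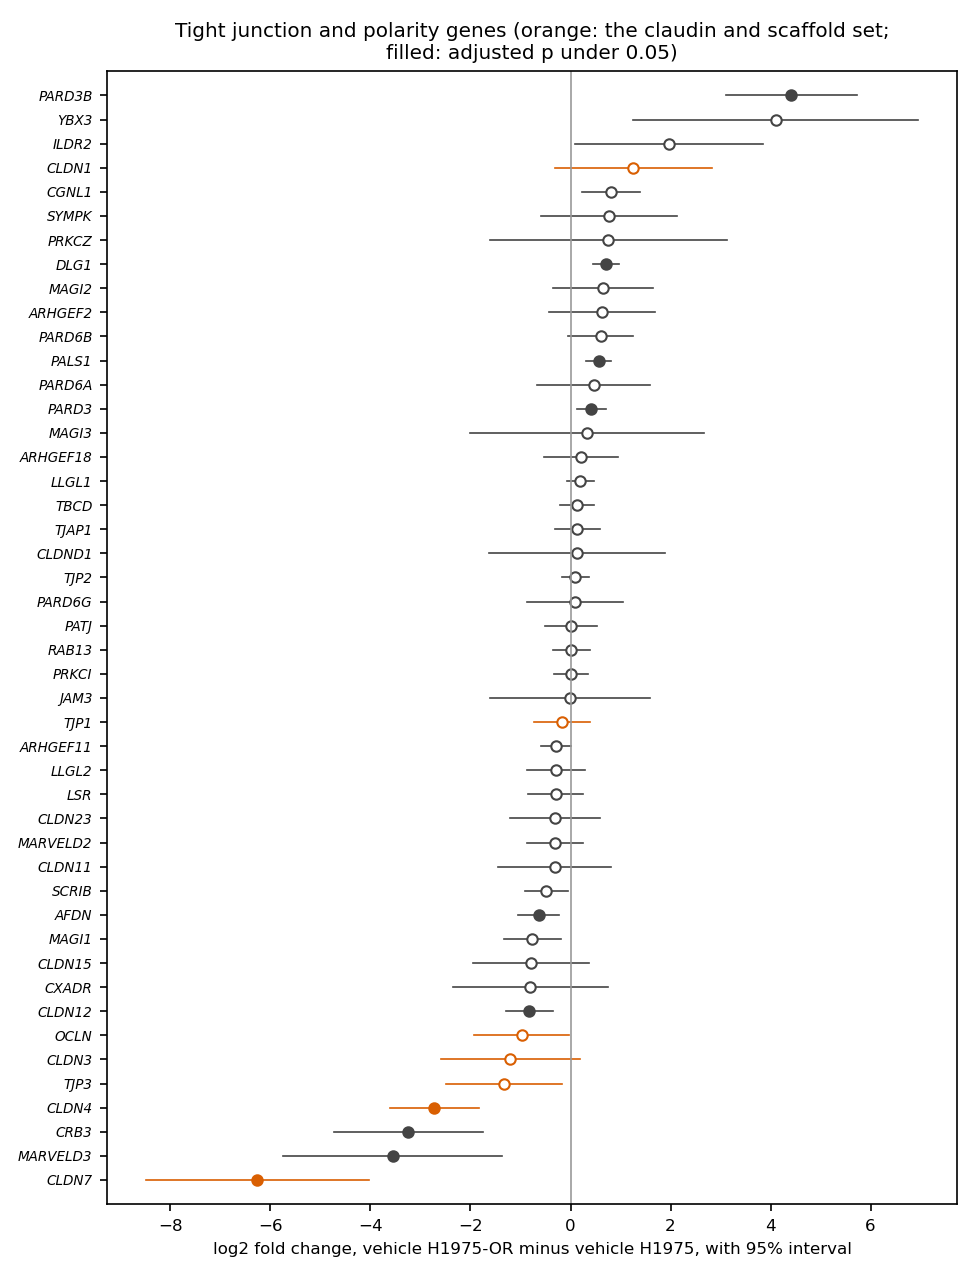
Log2 fold changes of vehicle-treated H1975–OR against vehicle-treated H1975 cells (horizontal axis) with 95% intervals for 7 of the 9 genes (orange) and the 39 further tight junction and polarity genes tested (grey), in order of size and filled where the adjusted p was under 0.05. CLDN7, MARVELD3, CRB3, and CLDN4 stand lowest and PARD3B highest.

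Relative to H1975, 3 of 39 rose and 2 fell with 1,25(OH)2D3 (9.89% of all genes rose), 3 rose and 2 fell with osimertinib (11.3% rose), and 7 rose and 3 fell with both agents (13.5% rose). PARD3B rose and CRB3 fell in each of these comparisons, which share the parental libraries, and MARVELD3 fell with osimertinib and with both agents. As with vehicle, these genes passed the count filter through 1 line only, so their calls are descriptions. CGNL1, the cingulin paralogue, rose with osimertinib (1.92, SE 0.32, adjusted p = 0.00132) and with both agents (1.796, SE 0.32, adjusted p = 0.00160) relative to H1975. Within H1975–OR cells, the 1 gene of the 37 tested that passed was PATJ, a Crumbs complex scaffold, which rose with both agents against vehicle (0.96, SE 0.16, adjusted p = 0.0398; 0.384% of all genes rose).

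Over the 14 libraries, CLDN4 and CLDN7 were the most alike of the pairs among the 9 genes (Pearson r = 0.91 of log2(CPM + 2) values), and CLDN1 had r = -0.17 with CLDN4. Among all genes in the 14-library fit, those most like CLDN7 were NPTX2 (0.99), PRSS22 (0.99), and RAB25 (0.99), and those most like CLDN4 were TUBGCP3 (0.95), PFKFB4 (0.95), and ARFGEF1 (0.95). The genes most like CLDN1 were BIRC3 (0.93), SMC5 (0.91), and CDKN2B (0.90). These values describe 14 libraries that share 2 cell lines, 5 conditions, and 3 replicate letters, and the difference between the lines enters each of them.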

How the data were processed

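RNA of 15 libraries was prepared with a stranded total RNA kit after ribosomal RNA removal and sequenced as paired ends on a NextSeq500. The authors ran Kallisto against hg38 and obtained gene-level values with tximport. The submitters' processing notes also name CASAVA 1.8.2, STAR 2.5.2b, kallisto 0.43.0, and GRCh38; the transcript annotation is not given in the sources used here. The deposited values are estimated counts per gene symbol, which the authors scaled neither to depth nor to length.

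After rounding, edgeR 4.0.16 (R 4.3.3) was run with filterByExpr by group (minimum count 10, minimum total 15), TMM scaling, and its quasi-likelihood test. Benjamini-Hochberg adjusted p under 0.05 counted as passing. One fit held Samples 1a to 2c, 3b, and 3c (12513 genes; H1975–OR or 1,25(OH)2D3 against H1975, and 1,25(OH)2D3 against vehicle). A second held the 11 H1975–OR libraries other than 3a (12503 genes; comparisons with osimertinib within H1975–OR). A further fit held all 14 libraries other than 3a (12819 genes; osimertinib or both agents against H1975). CPM used TMM factors of all 15 libraries, and levels per kilobase used the length of the Ensembl canonical transcript of GENCODE release 44. The scripts were tested on simulated data.

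Whether same-lettered libraries deviate together was checked by the correlation of their deviations from the group mean over 12627 genes. It was 0.31, 0.12, and 0.20 for a, b, and c between vehicle and osimertinib, 0.46, 0.28, and 0.26 between osimertinib and both agents, and 0.34, 0.12, and 0.18 between vehicle and both agents. Between vehicle and 1,25(OH)2D3 it was 0.070 for b and 0.11 for c, with no a. The letters were therefore taken to pair the libraries with vehicle, osimertinib, and both agents, and the block is a term for the letter. The libraries came from separate passages of 1 line, so p-values measure the spread between passages. Intervals on counts cover counting error only.

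The 9 genes, the list of 55 further genes, and the tests were chosen with earlier results of these data known. Named further genes are up to 5 rising and 5 falling by size among those past the threshold, and the 3 most alike genes by Pearson r; single genes beyond these were named after their values were seen. Alternatives changed the scaling (RLE), the tool (DESeq2 1.42.0), the filter (none, or 10 or more counts in each library), or the libraries (with Sample 3a, all 14 in 1 fit, the compared groups alone, or each library left out in turn). A replicate block was a further alternative. Block fits of the 11 H1975–OR libraries for 1,25(OH)2D3, and of 12 with Sample 3a, were added after seeing the data.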

Additional observations from a re-analysis of the deposited data

Results flagged for a closer look

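Sample 3a, a 1,25(OH)2D3-treated H1975–OR library that entered no comparison, stood above every vehicle-treated H1975–OR library for CLDN4, CLDN7, TJP1, and CGN. Only genes above vehicle were looked for, and the share of all genes for which this held was not computed. The values are therefore descriptions. In Sample 3a CLDN4 had 92.4 CPM, CLDN7 1.43 CPM from 9 counts, TJP1 143 CPM, and CGN 6.68 CPM from 42 counts. For CLDN4 this lay between the 105 and 79.0 CPM of Samples 3b and 3c, and for CLDN7 between 0.4297 and 1.86 CPM. For TJP1 and CGN it was above both, which stood at 68.3 and 61.3 CPM and at 1.504 and 1.12 CPM, and CGN was higher in Sample 3a than in any other library. The cause was not tested.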

How the results depend on the processing

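CLDN4 was lower in H1975–OR than in H1975 cells under every alternative run, between -3.08 and -2.33 with vehicle, with an adjusted p of at most 0.0138. The CLDN7 call with vehicle held wherever the gene was tested (adjusted p at most 0.0183). Since CLDN7 passed the count filter only through the parental group, in which it was high, this adds no support. Of the 9 genes, 1 (CLDN4) passed in H1975–OR against H1975 with at least 10 counts required in every library, since CLDN7 was then not tested, and between 2 and 4 passed with each library left out. With 1,25(OH)2D3 against H1975, 1 gene (CLDN7) passed without 1b and 4 (CLDN4, CLDN7, F11R, and OCLN) without 1a. The share of all genes is not given for these fits. CLDN7 and F11R passed the count filter only through the parental group, so their calls add nothing. Fits without Sample 3b or 3c have 1 treated library, and their calls are not counted. By DESeq2, 1 gene (CLDN4) passed in each comparison of both agents with osimertinib and with vehicle.

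With the replicate block, CLDN4, CLDN7, F11R, and TJP3 passed in H1975–OR against H1975, a fit for which the share of all genes is not given here. CLDN7 passed the count filter only through the parental group, and F11R was at 0 in every vehicle-treated H1975–OR library. The calls of CLDN7 and F11R therefore add nothing. With both agents against vehicle the block called 2 of 7 (CLDN4 and CLDN1), where 3.69% of all genes passed. In the 12 H1975–OR libraries with Sample 3a it called 1 (CLDN4). Same-lettered libraries of H1975 and H1975–OR did not deviate together (r between -0.12 and 0.08), so those share only a letter. The block turned the CLDN1 sign against H1975 to -0.28 with osimertinib and -0.36 with both agents, that of CLDN3 in the interaction (the 1,25(OH)2D3 difference with osimertinib minus that without) to 0.057, and, in the 11 H1975–OR libraries, that of TJP1 with 1,25(OH)2D3 against vehicle to 0.00070. It also ended the OCLN call of 1,25(OH)2D3 against H1975 (adjusted p = 0.0610), and TJP3 with osimertinib against H1975 did not pass with the 2 groups alone (0.0573). With both agents against H1975 the block added CLDN3 (0.0388), and with 1,25(OH)2D3 against H1975 it added F11R; it changed no other call of the 9 genes.

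With Sample 3a kept in, TJP1 with 1,25(OH)2D3 went to 0.39 against vehicle (0.40 with the block) and 0.22 against H1975, CLDN1 with 1,25(OH)2D3 against H1975 to 0.57, and CLDN3 in the interaction to 0.13. These genes passed in none of these fits.

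Leaving out single libraries turned the sign of small differences, none of which passed. For CLDN1 the log2 fold change ranged from -2.00 to 0.14 (osimertinib against vehicle), -2.14 to 0.062 (both agents against vehicle), -1.37 to 1.15 (both against osimertinib), -0.77 to 1.27 (osimertinib against H1975), and -0.91 to 1.19 (both against H1975). For CLDN3 it ranged from -0.66 to 0.21 (1,25(OH)2D3 against vehicle), -0.39 to 0.48 (osimertinib against vehicle), -0.64 to 0.10 (both against osimertinib), -0.62 to 0.25 (both against vehicle), and -0.44 to 0.42 (interaction). For CLDN4 the range was -0.20 to 0.15 with osimertinib against vehicle and -0.075 to 0.34 in the interaction. OCLN ranged from -0.47 to 0.014 (both against osimertinib) and -0.29 to 0.20 (both against vehicle), and TJP3 from -0.57 to 0.16 (osimertinib against vehicle). TJP1 ranged from -0.35 to 0.062 (H1975–OR against H1975), -0.33 to 0.046 (1,25(OH)2D3 against vehicle), -0.036 to 0.76 (both against osimertinib), -0.19 to 0.61 (both against vehicle), and -0.35 to 0.45 (both against H1975). Of 1095 values of single genes under an alternative, 1021 kept their sign and their side of the threshold. The cause of these changes was not tested.

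Over all genes, the calls ranged from 1426 to 3041 for H1975–OR against H1975 (2521 in the report's fit), 5 to 124 for 1,25(OH)2D3 against vehicle (19), 1 to 117 for osimertinib against vehicle (6), 2 to 66 for both agents against osimertinib (12), and 4 to 461 for both agents against vehicle (62). Low counts limit CLDN7, CLDN3, TJP3, and CGN in H1975–OR cells.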
